A study of Sus scrofa with 189 samples.

Results

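Translation initiation and elongation factors were described in the longissimus dorsi, the long back muscle, of 189 crossbred pigs. The set holds every gene whose name in the deposited table starts with EIF or EEF, which gave 53 genes (44 EIF and 9 EEF) with 96 listed transcripts, of 12651 genes with 18114 transcripts in all. Values were FPKM, a level scaled to transcript length and to the fragments of a library, and were summed over the listed transcripts of each gene. The animals were F1 pigs of Duroc boars mated to Luchuan sows, a fat-type Chinese breed, and all were kept on 1 farm with the same diet. They were slaughtered at 210 ± 6 days of age, and muscle was taken 25 minutes after death. The submitters' records give 8 boars, and give the number of sows as 158 in one place and 112 in another. Every library came from polyA RNA of a different animal, with no treatment and no purebred group, so the animals differ by parentage and by intramuscular fat (IMF) content, whose unit is not stated. The titles of 21 animals carry the added mark "re-analyzed", with no explanation. Those were 11 animals of low IMF (0.77 to 2.33) and 10 of high IMF (4.83 to 6.84). The other 168 were unmarked, 143 with a recorded IMF (1.19 to 5.61) and 25 without.

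Protein synthesis starts when initiation factors (eIF) bring the initiator tRNA, the small ribosomal subunit and the capped mRNA together. Elongation factors (eEF) then deliver each aminoacyl-tRNA and move the ribosome along the message. The start is controlled by phosphorylation of eIF2, which limits initiator tRNA delivery under stress, and by the 4E-binding proteins, which hold the cap-binding protein back until mTORC1 phosphorylates them. Adult skeletal muscle is known for replacing the common form of elongation factor 1A, EEF1A1, by a muscle and nerve form, EEF1A2.

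Of the 53 genes, 52 had a mean of at least 0.5 FPKM and entered the tests, and EIF5A2, the rare relative of EIF5A, did not (0.170 ± 0.117 FPKM, SD, n = 189). A further 6 genes have an identifier but no name in the table: EIF4A2, EIF6, EIF3M and EEF1E1 were named by identifier, and EEF1A1 and EIF2S3 by position, within 50 bases of the RefSeq gene on the same build. These 6 are given beside the set and are in none of its counts, apart from the search for outlying libraries at the end. Summed FPKM over the table ran from 364109 to 465105 per library, with a median of 415170, and read depth is not given. The muscle label held: 11 of 12 fibre markers were measured, with a summed level of 33293 to 118918 FPKM. Library 39 had the lowest median correlation with the others (0.889), close to the next lowest (0.892). It also had the most genes at 1 FPKM or more of all libraries, 10614 beside a median of 9152. In whole muscle, fewer cells of a type and less RNA per cell cannot be told apart, which touches every value below. Animals may share a sire or a dam, and p-values measure the spread between these libraries.

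EEF1A2 had the highest level of the set. EEF1A2 (ENSSSCG00000040401, chromosome 17, 62515417 to 62526190, Sscrofa11.1), which carries aminoacyl-tRNA to the ribosome, stood at 2448 FPKM in its lowest library, 5061 in the median and 7605 in the highest. Its mean of 5133 ± 841 FPKM (SD, n = 189) ranked 13 of all 12651 genes. EEF1A1 (ENSSSCG00000004489, chromosome 1), the form of most other tissues, ran from 228 through a median of 463 to 1800 FPKM. The lowest EEF1A2 and the highest EEF1A1 were both in library 39, and in no library did EEF1A1 exceed EEF1A2. EEF1A2 thus made up 57.6% of the summed FPKM of both forms in library 39, 91.6% in the median library and 95.8% in the highest. The ratio of EEF1A2 to EEF1A1 was 1.36 in library 39, 5.71 in the next lowest library and 23.1 in the highest, with a median of 11.0. A minus-strand gene, ENSSSCG00000037674 (chromosome 1, 92423745 to 92424727, 90.1 ± 36.8 FPKM), overlaps EEF1A1. Strand use in counting is not stated, so reads of this pair may not be separable and EEF1A1 is uncertain to that extent.

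**Figure D1:**
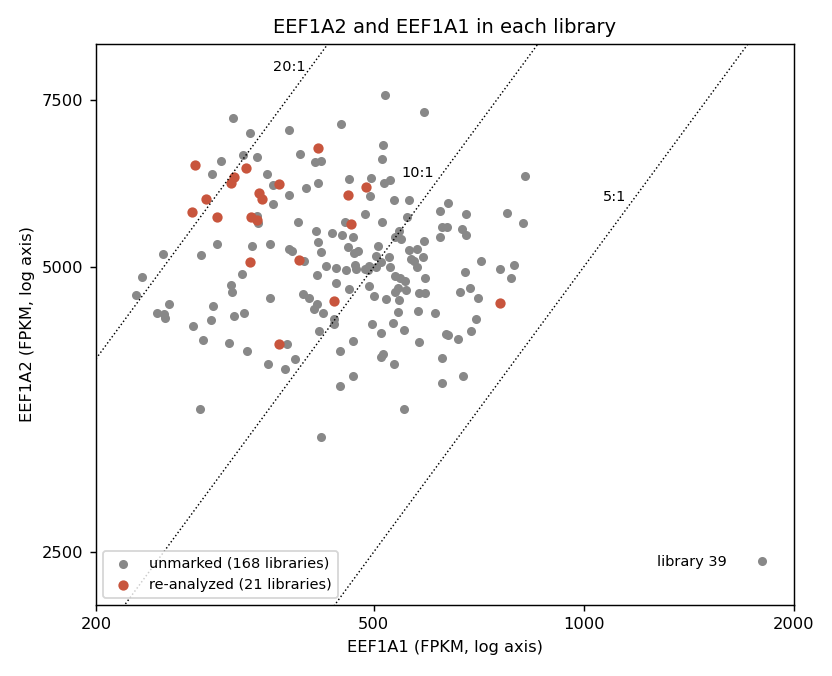
EEF1A2 (vertical) against EEF1A1 (horizontal) in FPKM on log axes, 1 point per library, with dotted lines at fixed ratios. EEF1A2 exceeds EEF1A1 in all 189 libraries, and library 39 stands alone at 2448 FPKM of EEF1A2 and 1800 of EEF1A1.

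The eEF1B subunits, which recharge eEF1A with GTP, differed widely in level. EEF1G averaged 887 ± 203 FPKM (lowest 507, median 868, highest 1562), EEF1D 409 ± 94.0 (263, 395 and 848) and EEF1B2 96.9 ± 21.2 (59.4, 93.7 and 182). Their ranges were partly separate: the highest EEF1B2 library was under the lowest EEF1D library. EEF2, the translocase, averaged 732 ± 227 FPKM, from 162 to 1443. EEF2K, the kinase that switches EEF2 off, averaged 16.0 ± 6.49 FPKM. EEFSEC, which delivers selenocysteine tRNA, averaged 5.44 ± 1.06 FPKM, and the eEF1A lysine methyltransferases EEF1AKMT1 and EEF1AKMT3 averaged 38.9 ± 8.24 and 1.04 ± 0.387.

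EEF2 was split over its transcripts in an all-or-little way. The gene (ENSSSCG00000025675, chromosome 2) has 2 listed transcripts: ENSSSCT00000061405 of 3256 bases, 74746578 to 74756768, and ENSSSCT00000054231 of 5744 bases, 74746452 to 74759082. The longer one took 6.92% of the gene's summed FPKM in its lowest library, 9.62% in the median and 75.7% in the highest. In 163 libraries it lay between 6.92% and 18.6%, and in the other 26 between 55.7% and 75.7%, with no library between. Those 26 were 15 of the 143 unmarked animals with IMF, 2 of the 25 without, 3 of the 11 re-analyzed animals of low IMF and 6 of the 10 of high IMF. The pattern was seen in the data and was given no test.

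EIF5A (ENSSSCG00000038359, chromosome 12), which helps the ribosome past difficult stretches, had the same kind of split without a gap. Its 2 long transcripts (4200 and 4352 bases, both ending at 52667663) stood against 2 short ones (1233 and 1417 bases, ending at 52664673). The long pair took from 9.39% to 80.7% of the gene's summed FPKM, with a median of 33.0%. Its share was over 50% in 16 of 21 re-analyzed libraries (median 69.0%) and in 49 of 168 unmarked ones (median 29.0%). The long shares of EEF2 and EIF5A moved together over the 189 libraries (Spearman rho 0.648, a description). Since FPKM divides by length, the same number of fragments gives a lower sum when it is assigned to the longer transcript. All comparisons were therefore also run with FPKM weighted by transcript length before summing, a measure that follows the fragments assigned to a gene. That choice was made after these shares were seen.

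**Figure D2:**
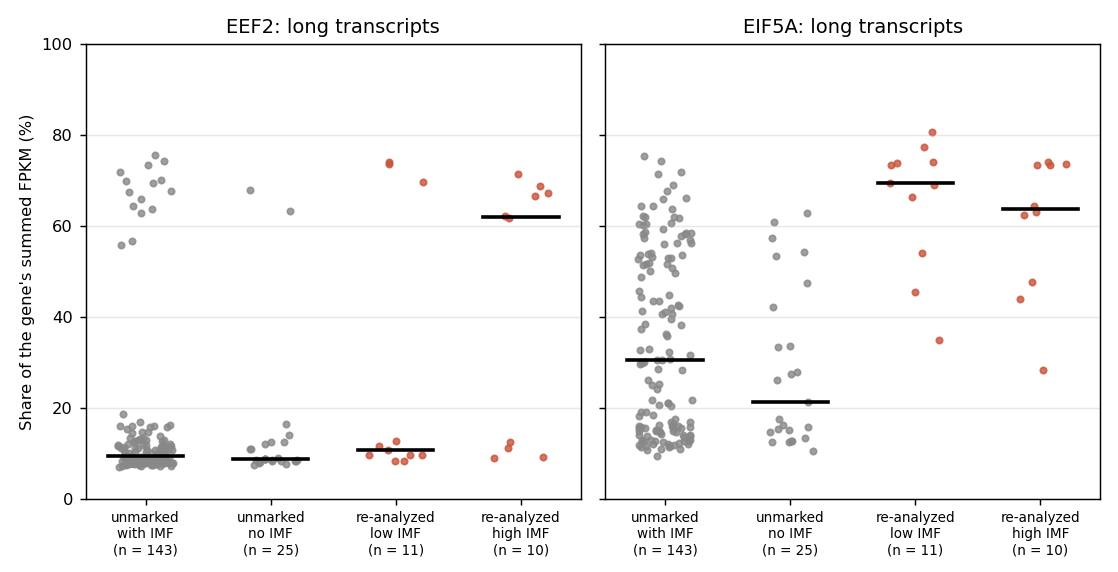
Share of the gene's summed FPKM in the long transcripts of EEF2 (left) and EIF5A (right), in percent, 1 point per library in the 4 groups, with a bar at the group median. EEF2 falls into libraries under 18.6% and over 55.7%, and the EIF5A median is 69.0% over the re-analyzed and 29.0% over the unmarked libraries.

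Among the initiation factors, EIF1, which with EIF1AX keeps the scanning ribosome open until the start codon, was the highest at 903 ± 156 FPKM (572, 894 and 1453). Its paralogue EIF1B averaged 36.4 ± 13.4 FPKM. EIF1AX averaged 30.6 ± 15.2 FPKM and ran from 2.96 in library 122 to 88.8 in library 104. EIF5B, the GTPase that joins the large subunit, ran from 1.49 to 29.0 FPKM (mean 10.6 ± 6.61).

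The eIF3 scaffold, which holds the small subunit and recruits mRNA, was represented by 11 subunits with a name. The highest were EIF3H (125 ± 29.8 FPKM), EIF3F (105 ± 27.4) and EIF3K (104 ± 23.0). EIF3I averaged 77.1 ± 14.4, EIF3L 63.3 ± 24.5, EIF3E 52.0 ± 21.6, EIF3J 50.9 ± 26.9 and EIF3G 49.0 ± 8.23 FPKM. The lowest were EIF3B (23.0 ± 4.83), EIF3A (17.8 ± 6.84) and EIF3D (16.3 ± 2.74), and the unnamed subunit EIF3M averaged 13.9 ± 4.49. Neighbours in this order, such as EIF3F and EIF3K or EIF3E and EIF3J, differed by far less than 1 SD.

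The eIF2 subunits, which carry the initiator tRNA, averaged 9.20 ± 3.47 FPKM for EIF2S1 (alpha) and 23.0 ± 9.79 for EIF2S2 (beta), with 26.4 ± 13.3 for EIF2S3 (gamma), which has no name in the table. The exchange factor eIF2B recharges eIF2. Its measured subunits averaged 22.3 ± 3.82 FPKM (EIF2B4), 16.1 ± 4.65 (EIF2B2), 10.1 ± 1.83 (EIF2B5, the catalytic one) and 8.18 ± 1.65 (EIF2B3). The 4 kinases of eIF2 alpha were low. EIF2AK1, the haem-regulated kinase, averaged 7.35 ± 1.32 FPKM, EIF2AK2, which binds double-stranded RNA, 0.985 ± 0.929, and EIF2AK3, the kinase of the endoplasmic reticulum, 0.861 ± 0.546. EIF2AK4, which senses amino acid lack, ran from 0.253 through a median of 1.24 to 3.05 FPKM. EIF2AK3 was listed at 0 in 6 libraries. EIF2A and EIF2D, which serve other routes of initiation, averaged 19.3 ± 8.66 and 9.41 ± 2.00 FPKM.

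Of the eIF4G scaffolds, EIF4G2, which lacks the site for the cap-binding partner, was the highest at 199 ± 70.2 FPKM. EIF4G1, the main scaffold, averaged 59.9 ± 12.9 over 9 listed transcripts, and EIF4G3 16.9 ± 9.00. EIF4E itself, the cap-binding protein, was low at 8.92 ± 5.22 FPKM, next to EIF4E3 at 10.9 ± 5.22 and EIF4E2 at 4.88 ± 1.40. Its inhibitor EIF4EBP1 stood well above it at 87.6 ± 28.7 FPKM (38.1, 81.1 and 174). The inhibitors EIF4EBP2 and EIF4EBP3 averaged 29.0 ± 7.55 and 3.69 ± 1.36, and the transport protein EIF4ENIF1 4.01 ± 0.985. The lowest EIF4EBP1 library was under the highest EIF4E library (39.5 FPKM), so their ranges met at the ends. The helicase EIF4A1 averaged 23.8 ± 8.71 FPKM, its unnamed paralogue EIF4A2 333 ± 89.2, and the exon junction helicase EIF4A3 19.1 ± 3.32. The helicase cofactors EIF4H and EIF4B averaged 87.8 ± 13.4 and 69.1 ± 15.3 FPKM. EIF6, which keeps the large subunit free, averaged 21.9 ± 3.77 FPKM and has no name in the table. EIF1AD, a nuclear relative of eIF1A, averaged 3.22 ± 0.734 FPKM.

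**Figure D3:**
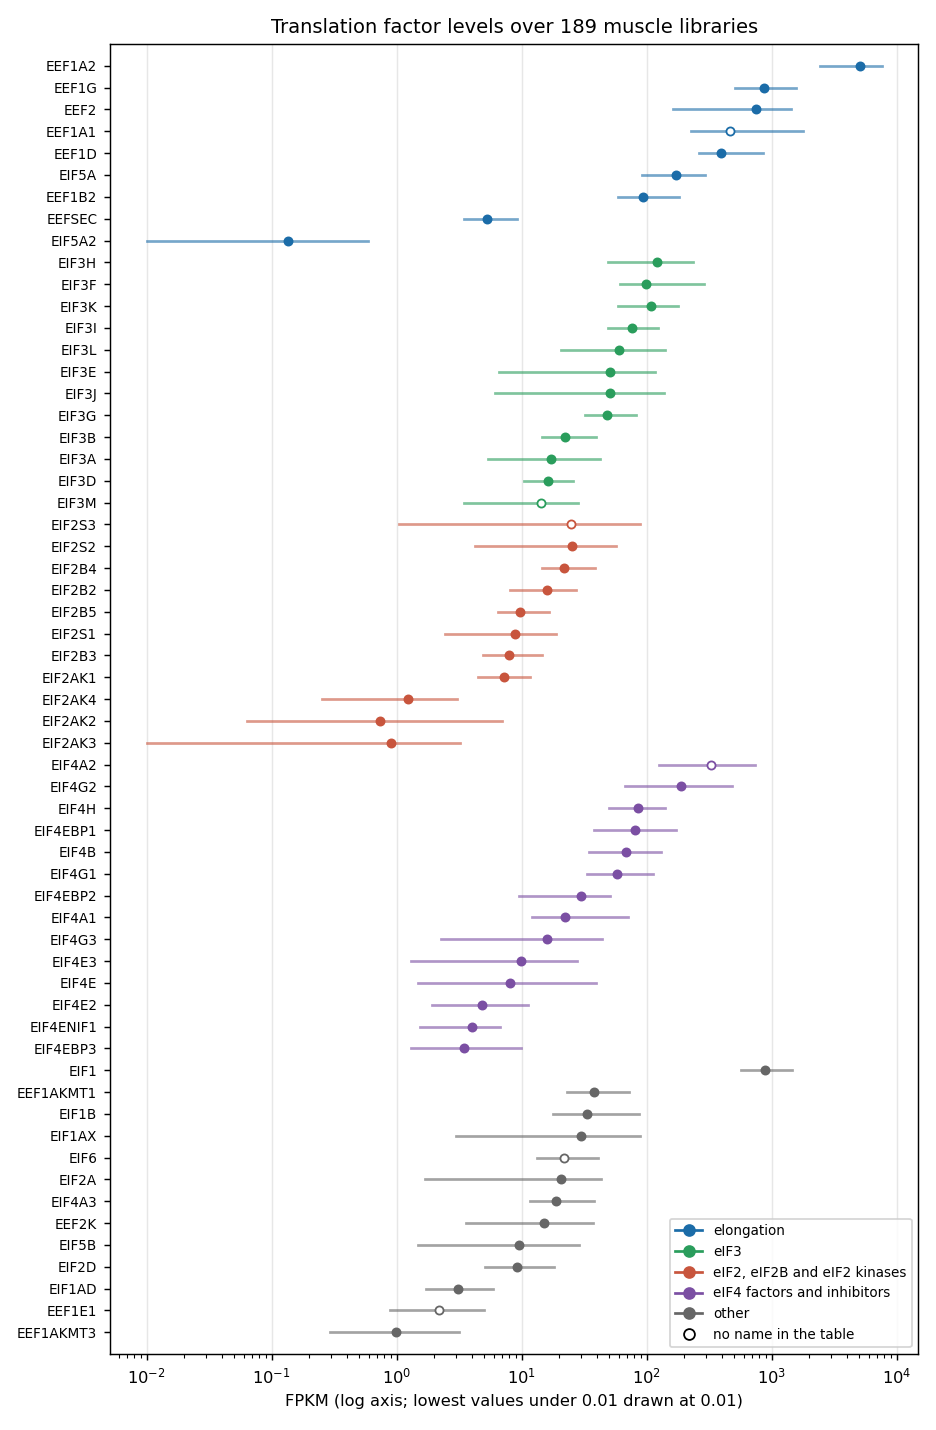
Level of each factor in FPKM on a log axis, grouped by role: points are medians and lines run from the lowest to the highest of 189 libraries, with open points for the 6 genes without a name in the table. EEF1A2 lies highest at a median of 5061 FPKM, and EIF5A2 lies lowest, under the kinases EIF2AK2, EIF2AK3 and EIF2AK4.

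Animals differed most in EIF3J, with an SD of 0.906 on the log2(FPKM + 1) scale, EIF5B (0.905), EIF1AX (0.825), EIF2A (0.808) and EIF4G3 (0.792). EIF4H varied least (0.213), and EEF1A2 was also steady (0.240). The median SD was 0.336 over the 52 tested factors and 0.374 over all 10717 tested genes. Library 122 was the lowest for EIF3J (6.11 FPKM), EIF3E (6.55), EIF1AX, EIF2A (1.70), EIF2S1 (2.44), EIF2S2 (4.26), EIF3H and EIF4E (1.47). Library 122 also had the second fewest genes at 1 FPKM or more, 7914, where libraries ran from 7803 through a median of 9152 to 10614.

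Factors of the same complex did not all vary together over the 168 unmarked libraries. The eIF2 subunits EIF2S1 and EIF2S2 had a Spearman rho of 0.934, and the 3 eEF1B subunits a median of 0.574. The 11 eIF3 subunits had a median of only 0.157 and ran from -0.738 (EIF3J with EIF3K) to 0.815 (EIF3D with EIF3K). EIF3A, EIF3E, EIF3H and EIF3J varied together, with rho from 0.309 (EIF3A with EIF3H) to 0.799 (EIF3A with EIF3J) and 0.791 for EIF3E with EIF3H. EIF3D, EIF3F, EIF3G, EIF3I, EIF3K and EIF3L were positively related to each other, with 0.814 for EIF3K with EIF3L and 0.770 for EIF3F with EIF3G. The 4 eIF2B subunits lay between at a median of 0.309. Over all pairs of factors the median rho was 0.104, beside 0.0666 over all pairs of tested genes. Every pair shares the scaling of its libraries, and no test was made.

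Average-linkage clustering of 1 minus rho, set to 3 clusters after the values were seen, placed 20 factors on the side of EIF3J and 19 on the side of EIF3K. The first side held EIF1AX, EIF2A, EIF2S1, EIF2S2, EIF4E, EIF4E2, EIF4E3, EIF4B, EIF4G3, EIF5B, EEF2K, EIF2D and 3 of the eIF2 kinases, and also EEF1B2, apart from its partners EEF1D and EEF1G although its rho with EEF1G was 0.574. The other held EEF1A2, EEF1D, EEF1G, EEF2, EIF1, EIF5A, EIF4EBP1, EIF4EBP3 and EIF2B2, and the median rho between the sides was -0.235. The clustering used these same rho, so a low value between the sides follows from the method. The number of genes at 1 FPKM or more moved with this split: its median rho was 0.638 with the first side (highest EIF5B, 0.840) and -0.437 with the other (lowest EEF1G, -0.732). Against their side were EEF1B2 (-0.194), EIF3B (0.178) and EEF1AKMT3 (0.0984). The main transcripts had a median length of 4744 bases on the first side and 1560 on the other, with exceptions such as EIF3J (747) and EIF3D (6288). The part of transcript length and of library make-up in this split was not tested. With every library set to a common median the rho between the sides was -0.281, and with length-weighted sums -0.214.

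**Figure D4:**
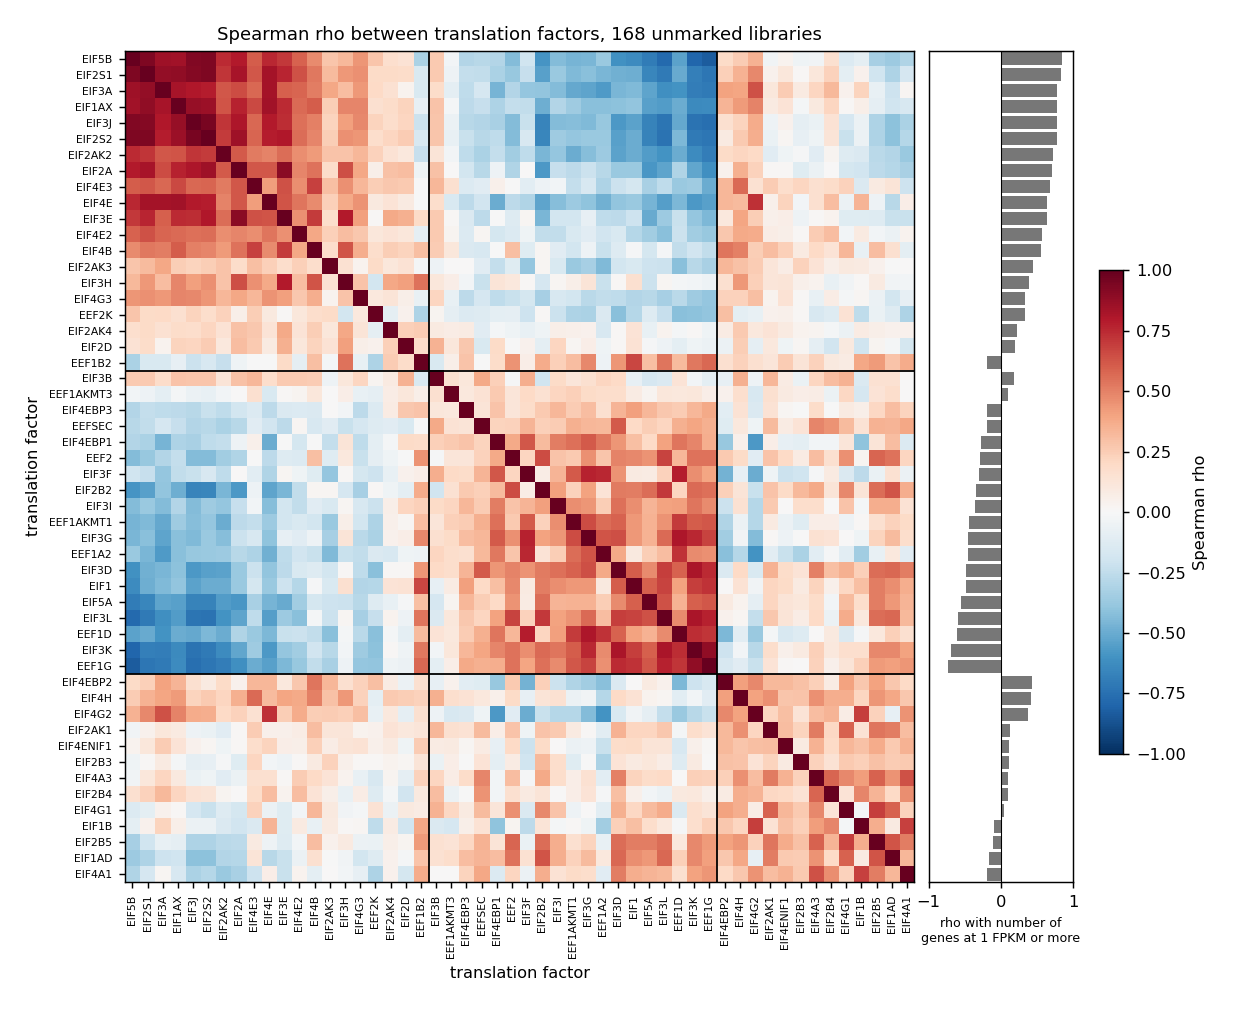
Spearman rho between 52 factors over 168 unmarked libraries (red positive, blue negative, black lines between 3 clusters), with bars for each factor's rho with the number of genes at 1 FPKM or more. The upper left block of 20 and the middle block of 19 are mostly blue against each other, with a median of -0.235. These blocks were clustered on the same rho. The bars are mostly positive in the first and negative in the second, apart from EEF1B2, EIF3B and EEF1AKMT3.

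IMF content was the trait in the labels, and the slope on it asks which factors follow fat deposition between animals. With limma over 164 animals, 0 of 52 factors passed an adjusted p of 0.05, where 0.084% of all tested genes did (9 of 10717), all 9 of them rising with IMF. At an unadjusted p under 0.05 there were 3 factors and 527 genes. The 3 were EIF4EBP3, with a slope of 0.07 per unit of IMF (SE 0.0269, adjusted p = 0.691), EIF2AK3 (0.08, adjusted p = 0.746) and EEF2 (-0.08, adjusted p = 0.929). The slope was positive for 39 of 52 factors, but for 18 of 52 after the median shift of libraries. Before that shift the median slope was 0.00793 over the factors and 0.0137 over all genes. Most genes at large thus also had a positive slope. EEF1A2 had a slope of 0.01 (SE 0.0165) and EIF4EBP1 of -0.03 (SE 0.0319). Within the 143 unmarked animals 0% of tested genes and 0 of 52 factors passed, with 270 genes and 1 factor, EIF2AK3 (0.09, adjusted p = 0.992), at an unadjusted p under 0.05. The slopes of the marked and unmarked sets did not differ for any gene by limma's interaction term: 0% of genes and 0 factors passed, with 176 genes and 0 factors at an unadjusted p under 0.05.

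Between the ends of the IMF range, 10 high against 11 low re-analyzed animals, 0 of 52 factors passed and 0.084% of all genes did (9 of 10717). At an unadjusted p under 0.05 there were 3 factors and 475 genes. These were EEF2K, 0.41 higher in log2(FPKM + 1) in the high animals (SE 0.138, adjusted p = 0.772), EIF4EBP3 (0.44, adjusted p = 0.807) and EIF2AK3 (0.32, adjusted p = 0.986). The EIF2AK3 difference ran from 0.25 under the median shift to 0.89 with a pseudocount of 0.1, and its slope over 164 animals from 0.06 to 0.18 under the same settings, with no call. The log2 ratio of EEF1A2 to EEF1A1 averaged 3.95 ± 0.295 (SD, n = 10) in the high and 3.93 ± 0.559 (SD, n = 11) in the low animals. The difference of 0.02 was within this spread (permutation test, two-sided p = 0.938). Over 164 animals, centred within set, the log2 ratio had r = 0.0686 with IMF (permutation p = 0.382) and rho = 0.0485 (p = 0.539). That r was 0.0928 within the unmarked and 0.0295 within the re-analyzed animals, and 0.0601 once the 2 animals of most extreme IMF were left out.

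More factors differed with the re-analyzed mark than with IMF. At the same IMF, 13 of 52 factors were higher and 5 lower in the re-analyzed libraries by limma at an adjusted p under 0.05. The fit holds the 143 unmarked animals with IMF, while ranges given below for unmarked libraries cover all 168 unless stated. Of all tested genes 18.3% were higher (1964) and 22.7% lower (2436), 41.1% in all (4400), so the factors were called no more often than genes at large (18 of 52). The median difference in log2(FPKM + 1) was 0.05 over the factors and -0.01 over all genes. What the mark stands for is not stated, and the animals, their handling and the libraries of the marked set cannot be told apart.

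Among the higher factors were 5 of 11 eIF3 subunits and both named eIF2 subunits, where 18.3% of all genes were higher. Other roles had no call in either direction, among them 3 cap-binding factors, 3 eIF4G scaffolds, 3 eEF1B subunits and 4 eIF2 kinases. Of all genes 41.1% were called in either direction, and roles of 3 or 4 genes are too small to set apart from that share. Differences between roles were not tested. EIF3B ran through 21.1, 29.2 and 38.5 FPKM in the re-analyzed and 14.5, 21.6 and 39.1 in the unmarked libraries (lowest, median, highest). It had the smallest adjusted p of the set, at a difference of 0.39 (SE 0.0592, adjusted p = 8.75e-08). EIF3E ran through 52.6, 74.3 and 99.0 against 6.55, 49.8 and 116 FPKM, a difference of 0.66 (SE 0.155, adjusted p = 0.00034). All 21 re-analyzed libraries lay above the unmarked median of EIF3E, while the unmarked range reached past them at both ends. EIF2S2 ran through 25.4, 30.7 and 56.6 against 4.26, 22.8 and 42.4 FPKM, with all 21 above the unmarked median and the highest library of all among the re-analyzed, and had a difference of 0.65 (SE 0.159, adjusted p = 0.000497). EIF2A (0.60, adjusted p = 0.005) and EIF5B (0.61, adjusted p = 0.0111) also had every re-analyzed library above the unmarked median. EIF3J was 0.67 higher (adjusted p = 0.00506), EIF2S1 0.35 (adjusted p = 0.0161), EIF1AX 0.50 (adjusted p = 0.0252), EIF3H 0.22 (adjusted p = 0.0205), EIF2B4 0.13 (adjusted p = 0.0432) and EIF3F 0.18 (adjusted p = 0.0495). Of these, EIF1AX lost its call without library 104 (adjusted p = 0.0606), EIF3H under quantile normalization (adjusted p = 0.0887), and EIF3F and EIF2B4 lost theirs under many of the alternatives. The last of the 13, EEFSEC, was 0.16 higher (adjusted p = 0.00853), and is named because it completes the count.

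EEF1A2 was higher and EEF1A1 lower in the re-analyzed libraries. EEF1A2 ran through 4152, 5895 and 6672 against 2448, 4990 and 7605 FPKM, a difference of 0.17 (SE 0.0559, adjusted p = 0.00953) that was 0.07 after quantile normalization (adjusted p = 0.29). EEF1A1 ran through 275, 343 and 759 against 228, 486 and 1800 FPKM, a difference of -0.34 (SE 0.102, adjusted p = 0.00495). The ratio of EEF1A2 to EEF1A1 had a median of 16.7 in the re-analyzed and 10.5 in the unmarked libraries with IMF, and the ranges overlapped (6.04 to 23.1 and 1.36 to 22.8). The difference in log2 ratio was 0.52 (permutation test, two-sided p = 4e-05), and 0.50 without library 39 (permutation p = 2e-05). Of the other genes without a name, EIF3M (0.43, adjusted p = 0.000618), EIF4A2 (0.34, adjusted p = 0.00124) and EEF1E1 (0.28, adjusted p = 0.000912), a scaffold of the tRNA synthetase complex, were higher, while EIF2S3 (0.34, adjusted p = 0.14) and EIF6 (-0.03, adjusted p = 0.741) did not pass.

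The 5 lower factors were EEF2K, EIF4EBP2, EEF2, EIF2B2 and EIF5A. EEF2K ran through 5.61, 10.4 and 15.0 against 3.60, 16.6 and 37.3 FPKM, a difference of -0.60 (SE 0.132, adjusted p = 0.000131), and every re-analyzed library lay under the unmarked median. EIF4EBP2 ran through 12.3, 18.4 and 36.4 against 9.58, 30.0 and 51.4 FPKM, a difference of -0.50 (SE 0.0829, adjusted p = 7.37e-07). EIF2B2 was 0.44 lower, at -0.44 (SE 0.0873, adjusted p = 2.07e-05), opposite to its partner EIF2B4. EEF2 ran through 205, 568 and 878 against 162, 759 and 1443 FPKM, a difference of -0.48 (SE 0.121, adjusted p = 0.00074). With length-weighted sums the EEF2 difference was -0.33 (adjusted p = 0.00299).

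EIF5A changed sides with the way its transcripts are added. Summed FPKM ran through 92.3, 138 and 202 in the re-analyzed and 103, 176 and 296 in the unmarked libraries, a difference of -0.32 (SE 0.0702, adjusted p = 0.000127). With length-weighted sums it was 0.18 higher (SE 0.0540, adjusted p = 0.00532 by limma). The short transcripts had medians of 44.8 FPKM in the re-analyzed and 130 in the unmarked libraries, and the long ones 88.5 and 51.2. No direction for the gene as a whole can be given from these data. Apart from EIF5A, the length-weighted sums changed the call of EIF2B4, now at an adjusted p of 0.0502, and of EIF2D (0.15, adjusted p = 0.0326).

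**Figure D5:**
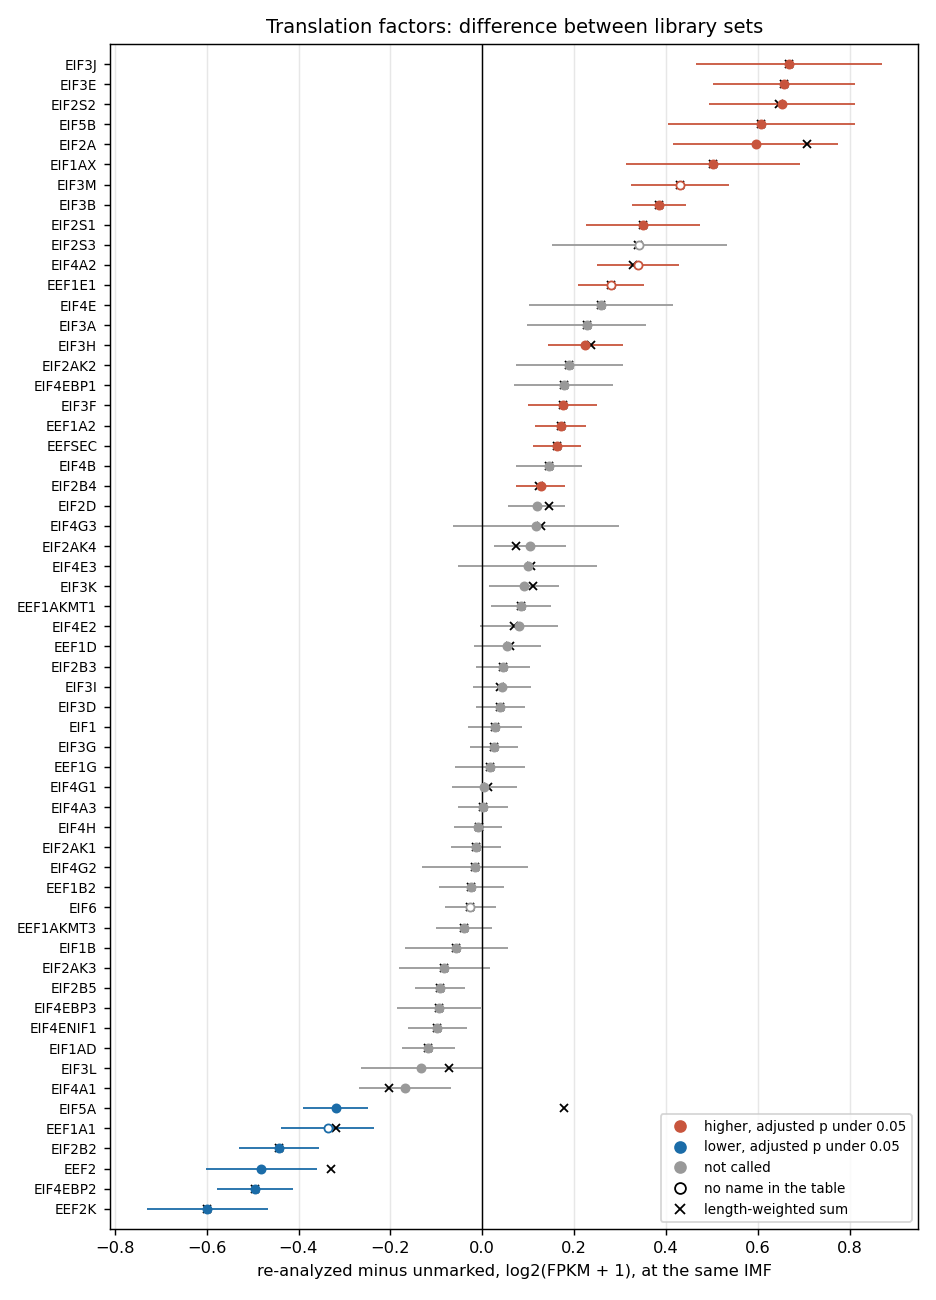
Difference between re-analyzed and unmarked libraries at the same IMF in log2(FPKM + 1), with bars of 1 SE, red for higher and blue for lower at an adjusted p under 0.05, and crosses for length-weighted sums. Of 52 named factors 13 are red and 5 blue, and EIF5A is blue at -0.32 with its cross at 0.18.

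Other lists were counted for the same mark, to be read against 18.3% of all genes higher, 22.7% lower and 41.1% called in all. Other translation factors, such as release, recycling and poly(A)-binding proteins, had 13 of 26 members higher and 1 lower (median 0.18), among them the ribosome rescue factor HBS1L (0.82, adjusted p = 0.000548) and the release factor ETF1 (0.55, adjusted p = 0.00114). Ribosomal proteins had 27 of 66 higher and 3 lower (median 0.13). Of the atrophy and FOXO list 7 of 16 were lower and 0 higher, with the ubiquitin ligases FBXO32 (-0.89, adjusted p = 0.000403) and TRIM63 (-0.63, adjusted p = 0.00419). Of the targets of the integrated stress response, the path that the eIF2 kinases feed, 7 of 21 were lower and 2 higher. For mTORC1 and its regulators the counts were 9 higher and 3 lower of 30, with RPS6KB1, its S6 kinase, 0.46 higher (adjusted p = 0.0137). With higher and lower calls pooled, the ribosomal, stress response, mTORC1 and atrophy lists were called about as often as genes at large. By direction, 27 of the 30 called ribosomal proteins were higher, and all 7 called atrophy genes were lower. Among all called genes, 1964 were higher and 2436 lower. Markers of other cells were lower: 10 of 11 collagen and fibroblast genes, 6 of 7 adipocyte genes, 4 of 7 endothelial and pericyte genes and 6 of 6 macrophage and lymphocyte genes tested. Of 11 muscle fibre markers 2 were higher and 2 lower, with a median difference of -0.12. Their summed level had medians of 66811 FPKM in the re-analyzed (33293 to 88394) and 75889 in the unmarked libraries (38331 to 118918). The summed collagen list had medians of 870 FPKM in the re-analyzed (380 to 1666) and 1293 in the unmarked libraries (367 to 3712). The summed adipocyte list had medians of 86.5 (34.6 to 272) and 132 (21.6 to 3047). Their part in the factors' differences was not tested.

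Animals that share the first 9 digits of their title were compared next, since the series is about inherited expression, though what the digits stand for is not stated. There were 48 such codes over 146 animals. The leading digits of a code were read as a title month in an alternative fit, so animals of a code also share that month. The F test had no term for the month, so what the code stands for and the month cannot be told apart in it. By limma's F test 1 of 52 factors passed, EIF4EBP2, where 1.82% of all genes did (195 of 10717), so its share is near the background. The intraclass correlation, the part of the variance between codes, was 0.299 for EIF4EBP2 (F = 2.25, adjusted p = 0.0324). EIF4EBP2 did not pass with libraries shifted to a common median (adjusted p = 0.0634) or among unmarked animals alone (adjusted p = 0.148). Next came EIF3F at 0.239 (adjusted p = 0.0898), EIF4EBP1 at 0.212 (adjusted p = 0.106), EIF4E2 at 0.194 and EIF3I at 0.176. EEF1A1 stood at 0.206 (adjusted p = 0.12) and EEF1A2 at 0.152 (adjusted p = 0.29). The median was 0.000874 over the factors and 0.0479 over all tested genes.

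Single factors were then related to each other and to gene scores over the 189 animals, centred within library set, with a score being the mean of z-scored log2 values of a list. In all, 13 relations were computed, with permutation p adjusted over them. Only the library set was accounted for, so animals that share a title code were treated as independent. EEF1A1 and EEF1A2 had r = -0.125 (rho -0.0443, adjusted p = 0.124 and 0.592), and r = -0.0195 without library 39. Under the median shift this turned to r = 0.216 (adjusted p = 0.00396), so its sign rests on the scaling. EEF1A1 followed the collagen and fibroblast score of 11 genes, r = 0.393 and rho = 0.387 (permutation p = 1e-05 each, the smallest that 100000 resamples can give, adjusted p = 0.00013 and 4.33e-05). That r was 0.416 without the 2 farthest animals, 0.427 within the unmarked and 0.0665 within the re-analyzed set. Whether the sets differ in this relation was not tested. EEF1A1 also followed the ribosomal protein score, r = 0.263 and rho = 0.210 (adjusted p = 0.00124 and 0.0123), with 0.233 without the farthest animals, 0.254 within the unmarked and 0.357 within the re-analyzed set. EEF2 followed EEF1A1, r = 0.298 and rho = 0.390 (adjusted p = 0.000217 and 4.33e-05), with 0.350 without the farthest animals, 0.330 within the unmarked and 0.104 within the re-analyzed set, and 0.348 with length-weighted sums.

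EEF1A2 had relations that changed with the scaling. With the collagen score it had r = -0.237 (adjusted p = 0.00221) but rho = -0.141 (adjusted p = 0.114), with -0.274 without the farthest animals, -0.241 and -0.211 within the sets, and 0.0863 under the median shift (adjusted p = 0.282). With the fast fibre score it had r = 0.184 (adjusted p = 0.0255) and rho = 0.0738 (adjusted p = 0.439). That r was 0.0607 without the farthest animals, libraries 3 and 39, both unmarked, so it depends in part on them. Within the sets the fast fibre r was 0.189 and 0.160, and under the median shift 0.632 (adjusted p = 2.6e-05). EIF4EBP1 went against the score of integrated stress response targets, r = -0.342 and rho = -0.395 (adjusted p = 0.00013 and 4.33e-05), with -0.338 without the farthest animals, -0.380 within the unmarked and -0.0921 within the re-analyzed set. Under the median shift that r was 0.0328 (adjusted p = 0.708), so the call rests on the scaling of the libraries. The other 6 relations did not pass: EEF1A1 with slow fibre (r = 0.0689) and fast fibre (-0.134), EEF1A2 with ribosomal proteins (0.0926) and slow fibre (-0.0268), and EIF4EBP1 with the atrophy score (-0.0823) and EEF1A1 (0.140). Under the median shift 5 of these 6 passed: EEF1A1 with slow fibre (r = 0.191, adjusted permutation p = 0.0112) and fast fibre (0.244, 0.00115), EEF1A2 with ribosomal proteins (0.458, 2.6e-05) and slow fibre (0.235, 0.00177), and EIF4EBP1 with EEF1A1 (0.290, 8.67e-05).

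The 8 genes most like each form of eEF1A were listed, with no test. Over the 168 unmarked libraries the overlapping gene ENSSSCG00000037674 was closest to EEF1A1 (Spearman rho 0.949). Then came DAP (0.777), ENSSSCG00000002045 (0.735), VIM, the intermediate filament of mesenchymal cells (0.733), ARPC3 (0.730), CDK4 (0.728), YWHAQ (0.727) and SSR3 (0.722). EEF1A2 was closest to other translation factors, EIF3F (0.758) and EEF1D (0.720), followed by BTBD6 (0.701), PEMT (0.700), CDC34 (0.687), EPN1 (0.682), ENSSSCG00000013889 (0.675) and ARAF (0.656). The 2 lists of 8 share no gene, and 0 ribosomal protein genes are in either. Lists this short, from 10717 tested genes with 66 ribosomal proteins, would rarely do otherwise, so neither count sets the forms apart. The median rho over ribosomal proteins was 0.186 for EEF1A1 and 0.0812 for EEF1A2.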

How the data were processed

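RNA-seq of polyA RNA from pig longissimus dorsi was read as 150-base pairs, 1 library per animal. Per the submitters' processing notes, HISAT2 2.0.5 and StringTie 1.3.3 were used with the Sscrofa11.1 assembly. The deposited table gives a value per transcript that its authors do not name as a unit in the file, and it was taken as FPKM from the tools and the summed values. Read depth is unknown, so no counting error can be given.

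Values of a gene's listed transcripts were summed. The 10717 of 12651 genes whose mean reached 0.5 FPKM were fitted together with limma 3.58.1 in R 4.3.3 on log2(FPKM + 1), with a mean-variance trend, and p-values were adjusted by Benjamini-Hochberg over all of them, with a threshold of 0.05. The IMF slope and the difference between library sets come from 1 model with both terms over 164 animals. High and low IMF were compared within the 21 re-analyzed animals, slopes within the unmarked and between the sets, and title codes by limma's F test over 146 animals with the set as a term. Correlations used values centred within set and 100000 resamples (scipy 1.17.1), two-sided. The limma fits for the IMF slope, the library sets, high against low IMF and title codes were also run on simulated data. The slopes within the unmarked set and between the sets were not. The simulated noise was independent for each gene and held no shifts shared across a library, so it does not test for those.

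Genes named are a list of core factors, up to 10 genes past the threshold in each direction or else the 3 of smallest p, the 5 highest factors in mean, SD and intraclass correlation, the 8 genes most like EEF1A1 and EEF1A2, and up to 5 past the threshold in each other list. EEFSEC and EEF1E1 fall outside that rule and were chosen after their values were seen. Also outside it are EIF1AD, EIF1B, EIF2D, EIF4E3, EIF4G2, EIF4ENIF1, EEF1AKMT1 and EEF1AKMT3. Members and lists were chosen with earlier results of these data known. Alternatives were another pseudocount, other filters, a common sum, a median shift, quantile normalization, other model terms, single libraries left out and, added after seeing the data, length-weighted sums (FPKM times length, summed, over the length of the main transcript). No sequences are shown.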

Additional observations from a re-analysis of the deposited data

Results flagged for a closer look

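Within the 10 re-analyzed animals of high IMF, 58 genes were examined for a library that stands apart, by Dixon's ratio of the gap to the nearest library over the whole range. For normally distributed values chance gives about 1 in 20, and 8 genes in 6 libraries passed. FPKM need not be normally distributed and the genes share the same 10 animals, so that rate is only a rough guide. EIF4A3, EIF4G2 and EEF1AKMT3 passed narrowly. Library 160 was the highest for EIF4E, at 22.7 FPKM against 14.2 in the next library (ratio 0.55), and for EIF4G2, at 368 against 262 (ratio 0.469). Library 141 was the lowest for EIF2AK3, at 0.191 against 0.826 (ratio 0.614), and for EIF4A3, at 13.9 against 17.9 (ratio 0.468). Library 148 was the highest for EIF2AK2, at 4.19 against 1.77 (ratio 0.66), library 155 for EIF2AK4, at 1.88 against 1.32 (ratio 0.639), library 63 for EIF4A2, at 731 against 434 (ratio 0.6), and library 17 for EEF1AKMT3, at 2.02 against 1.31 (ratio 0.477).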

How the results depend on the processing

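Of the 18 factors called between library sets, 13 passed under all 31 alternatives and 12 of these in 1 direction. EIF5A reversed to 0.18 with length-weighted sums. EIF2B4 passed in 17 and EIF3F in 12 of 31, and EEF1A2 and EIF3H were lost under quantile normalization. The number of called factors was 14 (9 higher, 5 lower) under quantile normalization and 19 (14 and 5) under the median shift. Leaving out single re-analyzed libraries gave 16 to 18 factors (10 to 13 higher, 5 to 7 lower) and 4061 to 4426 genes, and between high and low IMF 0 factors and 0 to 17 genes, 0 without low-IMF library 14 and 17 without low-IMF library 104. Requiring a mean of 5 FPKM gave 2253 genes of 4804 tested between sets, 5 for the IMF slope and 5 for high against low. A pseudocount of 0.1 gave 19 and 5 genes for the last 2, and a common sum 4 for high against low. Without library 39 the IMF slope called 28 genes, and 5 within the unmarked set. For title codes, 98 genes passed with a common sum, 110 with the median shift, 109 with quantile normalization and 59 in unmarked libraries alone, and 0 factors under the median shift or in unmarked libraries alone. The IMF slope of EEF1A2 became -0.00137 under the median shift.

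The median shift moved r to 0.216 for EEF1A1 with EEF1A2, to 0.191 and 0.244 for EEF1A1 with slow and fast fibre, to 0.458 and 0.235 for EEF1A2 with ribosomal proteins and slow fibre, and to 0.0863 for EEF1A2 with collagen. For EIF4EBP1 it moved r to 0.0328 with stress response targets, 0.0134 with the atrophy list and 0.29 with EEF1A1. EEF1A2 with fast fibre fell to 0.0859 without library 39 (adjusted p = 0.337 over the 13 permutation tests). The relations of EEF1A1 with ribosomal proteins, with collagen and with EEF2 passed under each of these alternatives. The cause of these changes was not tested. No paired analysis was possible because each library number belongs to 1 animal. Title codes are shared across the sets, and with the code as a random block 18 factors and 4376 genes passed between sets, 0 factors and 9 genes for the IMF slope. FPKM without depth sets no limit of detection for low factors such as EIF2AK3.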
